A study of Homo sapiens with 20 samples.

Results

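The NGP nutlin data were examined here for 39 genes of homologous recombination, the Fanconi anemia pathway and the DNA damage checkpoint. The members were taken by gene name from a list that was chosen with earlier results of these data known. All 39 of them were measured, among the 27697 genes (17351 of them mRNAs) that were tested. NGP is an established human neuroblastoma cell line, and each of the 20 samples is poly(A) RNA from these cells. The vehicle group (10 samples) received ethanol and the nutlin group (10 samples) received 8 µM of nutlin-3, a racemic small-molecule inhibitor of the ubiquitin ligase MDM2. The labels name no engineered allele, and since the cells are 1 line, the p-values measure the spread between cultures of that line.

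Homologous recombination repairs a broken chromosome by copying an intact sister chromatid. Nucleases first trim the broken ends, the BRCA proteins and the genes of strand exchange then prepare the single strand to pair with the intact copy, and helicases and translocases later resolve the joined molecules. The Fanconi anemia proteins act where both DNA strands are crosslinked: a core complex attaches ubiquitin to a pair of clamp proteins, and recombination finishes the repair. The checkpoint kinases ATM and ATR sense breaks and single-stranded DNA and signal through CHEK2 and CHEK1 to halt the cell cycle. Many of these genes are transcribed mainly in dividing cells, in S and G2 phase.

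Library depth ran from 14455477 to 19532971 estimated counts. As a check of the treatment, MDM2 lay between 199 and 290 CPM (counts scaled to the library's total, with TMM factors) in the vehicle samples and between 4797 and 6005 CPM in the nutlin samples (log2 fold change, LFC, 4.51 ± 0.07 SE). Of the 10 neuroblastoma markers all were detected, with a summed level of 2805 to 3242 TPM in vehicle and 3388 to 4305 TPM in nutlin samples. They included TH, the first enzyme of catecholamine synthesis, which rose (LFC 0.62). Markers of other cell types were low, with 9 genes summing to 5.64 to 8.11 TPM in vehicle and 14.7 to 20.8 TPM in nutlin samples. Of the 8 that were tested, 5 were called higher by edgeR at 5% FDR, beside 32.4% of all mRNAs tested. Among these 5 were CD68 (LFC 2.29) and COL1A1 (LFC 1.98). The other 3 were not called, and 1 of these, PTPRC, stayed at or below 0.394 CPM in every sample. ALB, the marker that was not tested, had a mean of 0 TPM in vehicle and 0.665 TPM in nutlin samples. The part of these markers in the results below was not tested. The median correlation of a sample with its own group was 0.984 to 0.988, and no library stood apart by this measure. On the second principal component of log2 CPM, vehicle replicates 4, 10 and 11 lay at 28.8, −23.4 and −32.5. All other libraries lay between −7.03 and 12.8.

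Nutlin treatment went with lower RNA levels for most of these genes. Of the 39 members, 34 (87.2%) were significantly differentially expressed (SDE) at a lower level and 3 (7.69%) at a higher level, by edgeR's quasi-likelihood F-test with Benjamini-Hochberg adjustment over all genes tested at 5% FDR. Over all genes tested, 26.5% were called lower and 32.3% higher, and over the mRNAs alone 38.5% and 32.4%. WRN and ATR were not called. The median LFC of the members was −1.36, beside −0.01 for the mRNAs and 0.19 for all genes tested. A decrease of more than 2-fold was called for 26 of 39 members, beside 7.67% of mRNAs, and one of more than 4-fold for 7 members, beside 1.54% of mRNAs. Every nutlin sample lay below every vehicle sample for 31 members, beside 25.6% of mRNAs, and above for ATM alone, beside 14.5% of mRNAs. In these bulk samples, fewer cells that express a gene and less RNA per cell cannot be told apart. Scaling by total count without TMM factors moved the median LFC of the mRNAs to 0.18 and the lower share of all calls from 45.1% to 32.3%. The members then gave 33 lower and 5 higher calls with a median LFC of −1.17.

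**Figure D1:**
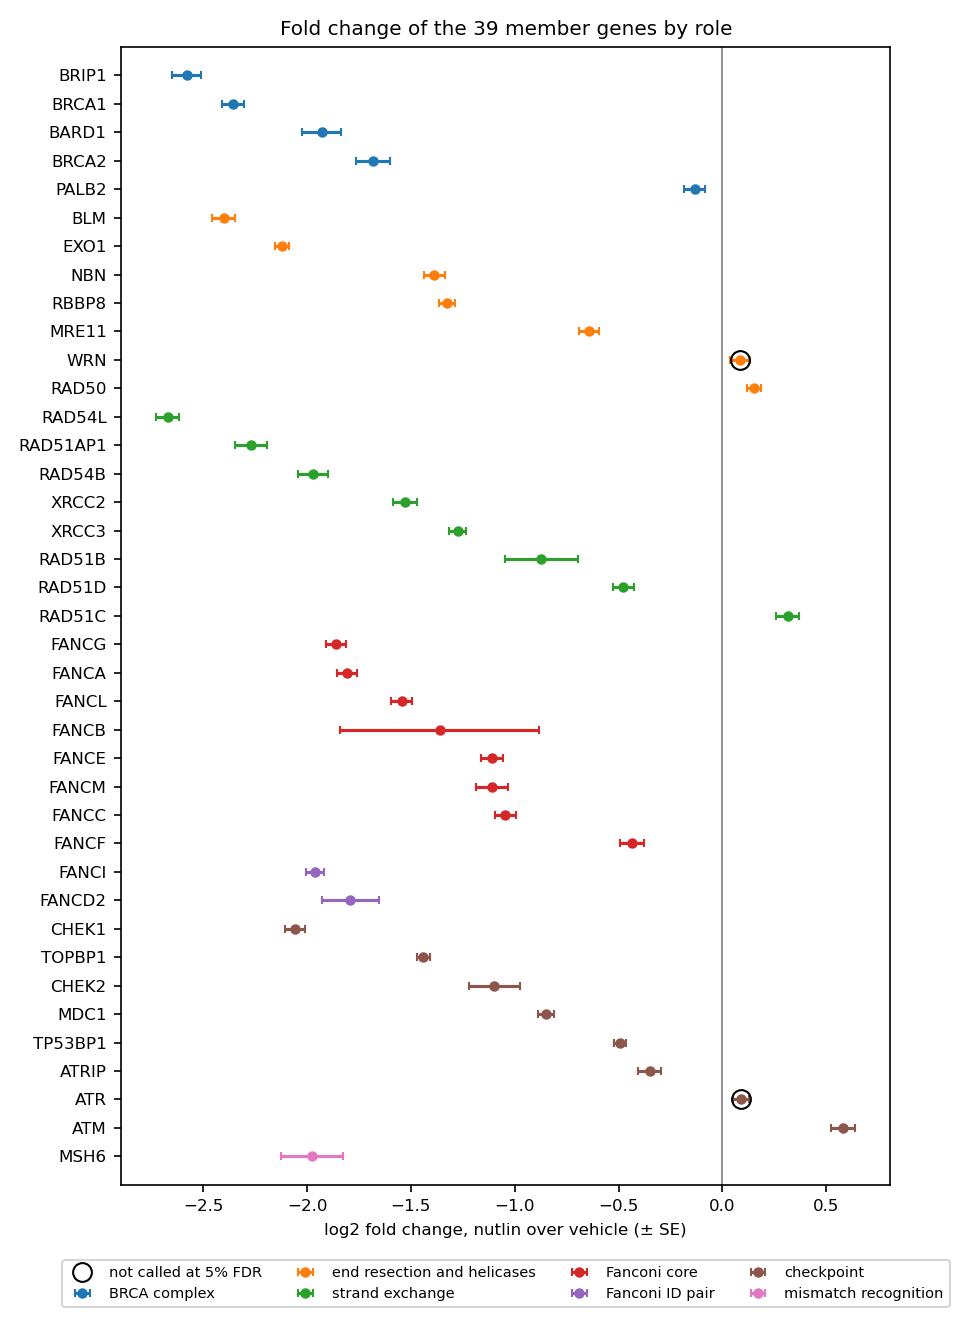
LFC (nutlin over vehicle, x axis, bars ± SE, 10 samples per group) of the 39 members (y axis), grouped and coloured by role and ordered within a role. Circles mark WRN and ATR, the 2 members that were not called. The points run from −2.67 (RAD54L) to 0.58 (ATM), and FANCB has the widest bar.

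In the BRCA complex 4 of the 5 genes fell by more than 2-fold, and the difference in PALB2 was small. All 5 were called lower. BRIP1, the helicase that binds BRCA1, lay between 74.6 and 93.3 CPM in vehicle samples (median 84.2) and between 10.8 and 17.1 CPM in nutlin samples (median 13.6). The groups were far apart, with an LFC of −2.58 ± 0.07 (SE; adjusted p = 1.79e-23, edgeR). BRCA1 (chr17:43044295-43170245, hg38), the ubiquitin ligase that gives the complex its name, fell by 2.36 on the log2 scale, and its ligase partner BARD1 by 1.93. BRCA2 (chr13:32315086-32400268), which binds the trimmed single strand, fell by 1.68. PALB2, the bridge between BRCA1 and BRCA2, lay between 20.6 and 24.7 CPM in vehicle samples (median 23.8) and between 18.4 and 23.8 CPM in nutlin samples (median 21.6). Its groups overlapped, and its call (LFC −0.13 ± 0.05, adjusted p = 0.0258, edgeR) was lost under 8 of the 9 other fits, with the direction turned when TMM was left out (LFC 0.06). A lncRNA on the same strand, ENSG00000267002, overlaps the BRCA1 gene body and had a mean count of 1684 in vehicle and 2257 in nutlin samples, and how reads were shared between them is uncertain.

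Among the 7 genes of end resection and the DNA helicases, 5 were called lower and RAD50 was called higher. BLM, the helicase mutated in Bloom syndrome (chr15:90717346-90816166), lay between 95.2 and 113 CPM in vehicle samples (median 99.5) and between 15.4 and 22.9 CPM in nutlin samples (median 19.6). No sample of one group reached the other (LFC −2.40 ± 0.06 SE, adjusted p = 4.91e-25, edgeR). EXO1, the exonuclease of long-range resection, fell by 2.12 on the log2 scale. Within the MRN complex, which binds broken ends first, the members moved unequally. NBN fell by 1.39 and the nuclease MRE11 by 0.64, while RAD50, the ATPase that tethers the ends, lay between 76.6 and 92.9 CPM in vehicle (median 82.7) and between 88.9 and 97.0 CPM in nutlin samples (median 93.2). The RAD50 groups overlapped, although the difference was called (LFC 0.15 ± 0.03 SE, adjusted p = 0.000364, edgeR). RBBP8, which starts resection together with MRN, fell by 1.33. WRN, the helicase of Werner syndrome, was not called (LFC 0.08 ± 0.05 SE, adjusted p = 0.139, edgeR), but it was called higher under 5 of the 9 other fits, with LFCs up to 0.30.

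Of the 8 genes of strand exchange, 7 were called lower and RAD51C higher. RAD54L, a motor protein that drives strand exchange (chr1:46246461-46278480), had the most negative LFC of all members. It lay between 52.1 and 61.2 CPM in vehicle samples (median 58.1) and between 6.86 and 10.2 CPM in nutlin samples (median 9.15). This is an LFC of −2.67 ± 0.06 (SE; adjusted p = 2.52e-26, edgeR), and 87 of the 17351 mRNAs had a lower one. Its paralog RAD54B fell by 1.97 and RAD51AP1, an accessory protein of strand exchange, by 2.27. XRCC2, XRCC3, RAD51B, RAD51C and RAD51D, whose products form small complexes with each other, did not move as a block. XRCC2 fell by 1.53, XRCC3 by 1.27 and RAD51D by 0.48. Over the other fits the LFC of XRCC2 ran from −1.53 to −0.94. Its protein_coding transcripts held 26.9% of its counts in vehicle and 35.7% in nutlin samples. RAD51B fell by 0.87 at a low level of 1.14 to 2.27 CPM in vehicle samples, with overlapping groups. Its LFC ran from −1.45 to −0.51 over the other fits, and the call was lost with the effective length offset. RAD51C (chr17:58692573-58735611) lay between 19.1 and 24.6 CPM in vehicle (median 20.6) and between 22.0 and 29.5 CPM in nutlin samples (median 26.5), with overlapping groups and an LFC of 0.31 ± 0.06 (SE; adjusted p = 2e-05, edgeR).

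All 8 genes of the Fanconi core complex and its anchor were called lower, 7 of them by more than 2-fold. FANCG, a scaffold of the core complex (chr9:35073835-35080004), lay between 52.1 and 67.5 CPM in vehicle samples (median 59.7) and between 13.6 and 18.0 CPM in nutlin samples (median 16.6). The groups did not overlap (LFC −1.86 ± 0.05 SE, adjusted p = 8.3e-24, edgeR). FANCA fell by 1.81 and FANCL, the ubiquitin ligase subunit, by 1.54. FANCE and the translocase FANCM both fell by 1.11 and FANCC by 1.04. FANCF had the smallest decrease of the complex. It lay between 19.8 and 24.4 CPM in vehicle (median 22.7) and between 14.2 and 19.4 CPM in nutlin samples (median 16.3), and again no sample crossed over (LFC −0.43 ± 0.06 SE, adjusted p = 1.29e-07, edgeR). FANCB, a binding partner of FANCL, was called at an LFC of −1.36 with an SE of 0.48 (adjusted p = 0.0159, edgeR). Its samples ranged from 0.0711 to 8.3 CPM in vehicle and from 0 to 2.84 CPM in nutlin, so the groups overlapped widely, and the call was lost under 5 of the 9 other fits. The nutlin sample at 0 allows up to 0.202 CPM over the FANCB transcripts counted (3 counts, counting error only), and any form of FANCB that could not be matched to the gene would not be in this sum.

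The clamp pair FANCD2 and FANCI, to which the core complex attaches ubiquitin, was called lower for both genes. FANCI (chr15:89243945-89317261) lay between 226 and 244 CPM in vehicle samples (median 234) and between 52.1 and 68.6 CPM in nutlin samples (median 58.8). FANCD2 (chr3:10026370-10101932) lay between 27.1 and 44.2 CPM in vehicle samples (median 36.3) and between 4.49 and 18.3 CPM in nutlin samples (median 9.83). Neither gene's groups overlapped, and the LFC was −1.96 ± 0.04 (SE) for FANCI and −1.79 ± 0.14 (SE) for FANCD2 (adjusted p = 1.53e-25 and 1.95e-12, edgeR). MSH6, which recognises mismatched bases, was the single mismatch repair gene of the list. It lay between 82.8 and 128 CPM in vehicle samples (median 112) and between 14.7 and 41.1 CPM in nutlin samples (median 29.2), with no overlap but a wide spread in the nutlin group (LFC −1.98 ± 0.15 SE, adjusted p = 1.08e-12, edgeR).

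The checkpoint genes moved unequally. Of 8 members, 6 were called lower, 3 of them by more than 2-fold, and ATM was called higher. CHEK1, the kinase that ATR activates (chr11:125625163-125676255), lay between 30.7 and 36.0 CPM in vehicle samples (median 32.8) and between 7.08 and 8.53 CPM in nutlin samples (median 8.18). The 2 groups were well apart and each was tight (LFC −2.06 ± 0.05 SE, adjusted p = 4.57e-25, edgeR). TOPBP1, the activator of ATR, fell by 1.44, and CHEK2, the kinase downstream of ATM, by 1.10. The adaptor proteins that gather at broken ends had smaller decreases, of 0.85 for MDC1 and 0.49 for TP53BP1, and ATRIP, the partner that brings ATR to single-stranded DNA, fell by 0.35. ATR itself was not called (LFC 0.09 ± 0.04 SE, adjusted p = 0.0547, edgeR), but it was called higher under 5 of the 9 other fits, with LFCs up to 0.29. ATM (chr11:108223044-108369102) was the single member with every nutlin sample above every vehicle sample. It lay between 37.3 and 55.8 CPM in vehicle (median 47.6) and between 68.5 and 73.0 CPM in nutlin samples (median 70.1), an LFC of 0.58 ± 0.06 (SE; adjusted p = 7.56e-10, edgeR). The size of the ATM difference depended on which transcripts and lengths were counted, from 0.31 with an effective length offset to 1.57 with protein_coding transcripts only.

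**Figure D2:**
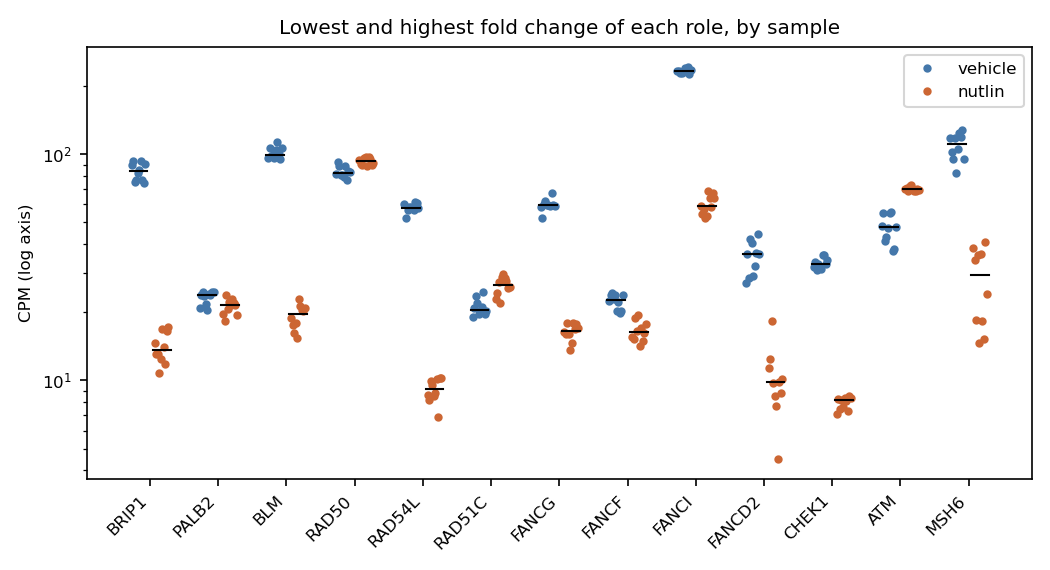
CPM (log axis) of the member with the most negative and the one with the most positive LFC of each role, 1 point per sample (10 vehicle in blue, 10 nutlin in orange), with a black line at the median. BRIP1, BLM, RAD54L, FANCG, FANCF, FANCI, FANCD2, CHEK1 and MSH6 are separated downward, PALB2, RAD50 and RAD51C overlap, and the nutlin points of ATM, from 68.5 to 73.0 CPM, lie above all vehicle points.

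The decrease was present in each nutlin sample. Set against the vehicle mean of each gene, the median over the 39 members lay between −0.06 and 0.06 (log2) in the vehicle samples and between −1.53 and −1.31 in the nutlin samples. The summed level of the members was 2537 to 2765 CPM in vehicle and 1102 to 1206 CPM in nutlin samples. Within groups, the coefficient of variation of a member had a median of 7.13% in vehicle and 9.67% in nutlin samples.

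**Figure D3:**
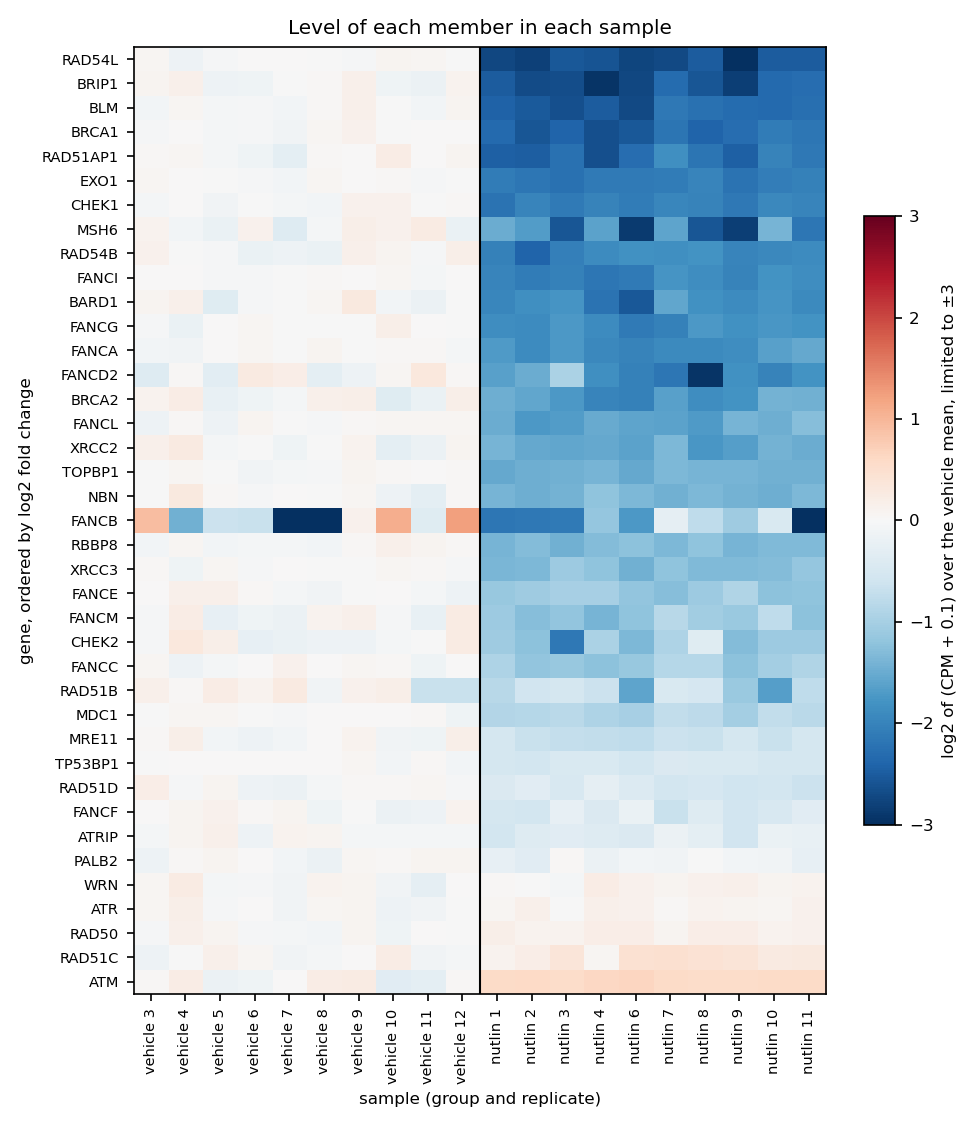
Level of the 39 members (rows, ordered by LFC) in the 20 samples (columns, 10 vehicle left of the line and 10 nutlin right of it), as log2 of CPM + 0.1 over the vehicle mean, limited to ±3. The nutlin columns are blue for most rows, pale for PALB2, WRN, ATR and RAD50 and red for ATM, and FANCB and MSH6 vary from sample to sample.

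To compare levels between genes, TPM was used, which accounts for transcript length. In vehicle samples FANCI had the highest mean level (89.7 ± 6.49 TPM, SD, n = 10), followed by EXO1 (65.9 ± 6.66 TPM), FANCA (54.7 ± 5.62 TPM) and MSH6 (50.6 ± 5.99 TPM). FANCA and MSH6 differed by less than their SDs. FANCB (1.76 ± 1.44 TPM), RAD51B (2.84 ± 1.19 TPM) and FANCF (5.69 ± 0.613 TPM) had the lowest means, and FANCF and BARD1 (5.86 ± 1.97 TPM) differed by less than their SDs. In nutlin samples the order was another one. RAD51C was highest (31.1 ± 3.25 TPM), followed by FANCI (24.1 ± 3.18 TPM), TP53BP1 (23.4 ± 2.32 TPM) and MDC1 (23.1 ± 2.69 TPM), of which the last 3 differed by less than their SDs. The median over the members was 23.0 TPM in vehicle and 8.54 TPM in nutlin samples.

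Pairs of genes whose products work together were then compared, to see whether partners shifted by the same amount. For each of 10 pairs the log2 ratio of the estimated counts (+ 0.5) was taken within a sample, so that library size cancels, and its group means were compared by a two-sided permutation test with 100000 resamples and adjustment over the 10 pairs. The ratio shifted in 9 pairs. With all transcripts counted, BRCA2/PALB2 had the largest shift, from 2.17 ± 0.25 (SD, n = 10) in vehicle to 0.62 ± 0.30 in nutlin samples, a difference of −1.55 (permutation p = 2e-05, adjusted p = 3.33e-05). MRE11/RAD50 shifted by −0.79, RAD51D/RAD51C by −0.79, RAD54L/RAD54B by −0.71 and ATR/ATM by −0.50, each with no overlap between the groups. With protein_coding transcripts only, ATR/ATM shifted by −1.55 and BRCA2/PALB2 by −1.50. The ATR/ATRIP ratio moved the other way, by 0.45, also without overlap. These 5 pairs had the same adjusted permutation p of 3.33e-05. CHEK1/CHEK2 shifted by −0.91, from 0.39 ± 0.21 to −0.52 ± 0.42, with overlapping groups (adjusted permutation p = 5.71e-05). With protein_coding transcripts only, that shift was −0.43 and was not called (adjusted permutation p = 0.118). BRCA1/BARD1 shifted by −0.43 (adjusted permutation p = 0.000213). For XRCC2/XRCC3 the shift of −0.25 (adjusted permutation p = 0.00556) turned to 0.15 when only protein_coding transcripts were counted. FANCD2/FANCI was the pair with no detected shift, with a difference of 0.11 ± 0.20 (SE; adjusted permutation p = 0.592).

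**Figure D4:**
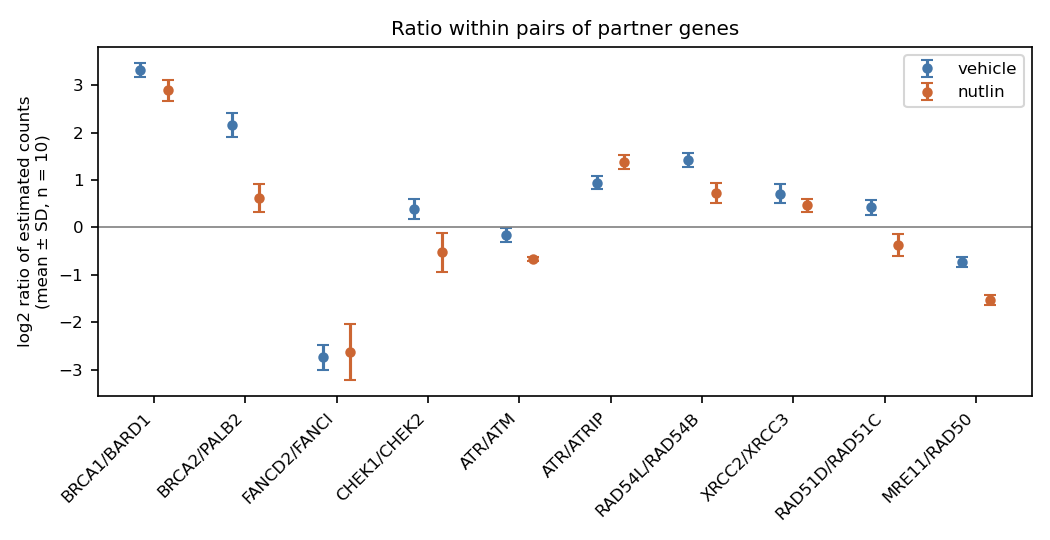
Log2 ratio of estimated counts within 10 pairs of partner genes (y axis, mean ± SD over 10 samples) in vehicle (blue) and nutlin (orange) samples. BRCA2/PALB2 drops from 2.17 to 0.62, ATR/ATRIP rises from 0.94 to 1.39, and the FANCD2/FANCI means of −2.75 and −2.63 lie within each other's bars.

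The members were also examined transcript by transcript, since a gene's total can hide a switch between its forms. Of 35 members with at least 2 transcripts that could be tested, 19 (54.3%) had changed transcript usage by edgeR's diffSpliceDGE at 5% FDR, beside 44.8% of all 10026 genes tested. The 4 examples that follow were chosen after their values were seen. CHEK1 (adjusted p = 1.13e-06, edgeR) had its decrease in some forms and not in others. CHEK1-213 went from 31.3% ± 10.5 (SD, n = 10) of the gene's counts to 4.34% ± 6.25, and CHEK1-204, the canonical form, from 7.90% ± 6.66 to 36.1% ± 6.96. In estimated counts, CHEK1-204 had a mean of 40.1 in vehicle and 44.8 in nutlin samples, while CHEK1-213 went from 162 to 5.26.

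ATM (adjusted p = 0.000641, edgeR) showed the higher level in 1 protein_coding form. ATM-203 went from 163 ± 112 to 482 ± 128 estimated counts (SD, n = 10), while ATM-201, which GENCODE types as nonsense_mediated_decay, had 366 ± 108 and 331 ± 103. For MSH6 (adjusted p = 9.53e-07, edgeR), MSH6-209 went from 304 ± 204 to 8.92 ± 15.9 estimated counts, and the canonical MSH6-201 from 170 ± 44.1 to 97.7 ± 34.9. For XRCC3 (adjusted p = 0.000102, edgeR), XRCC3-202 went from 1.27% ± 2.77 to 13.2% ± 5.34 of the gene's counts against the trend of the gene. Estimated counts of transcripts that share most of their sequence are less certain than gene totals. The canonical GENCODE transcripts of FANCB, FANCD2 and ATM were not among the transcripts measured, so their totals rest on other forms. Whether older forms of these or of other members were among the 7862 transcripts that could not be matched was not determined. Levels of such members may be too low, and their fold changes and pair ratios may differ. The 1138 unmatched transcripts with a mean count of at least 20 were set against each member within the groups. These values share each library's total. Over the 20 samples the most negative r was −0.93 for FANCB, with a median of −0.72 over the members. For CHEK2 it was −0.83, with a transcript at 393 to 656 estimated counts in vehicle and 12.2 to 211 in nutlin samples. CHEK2 itself held 311 to 498 and 95 to 307. For FANCD2 it was −0.71, with a transcript at 931 to 1445 and 251 to 412, beside 403 to 693 and 70 to 304 for FANCD2. Other members had values as low, such as BRCA2 (−0.88). Which genes these transcripts belong to was not determined. Among the 36 members whose canonical transcript was measured, 32 were called lower and 2 higher.

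**Figure D5:**
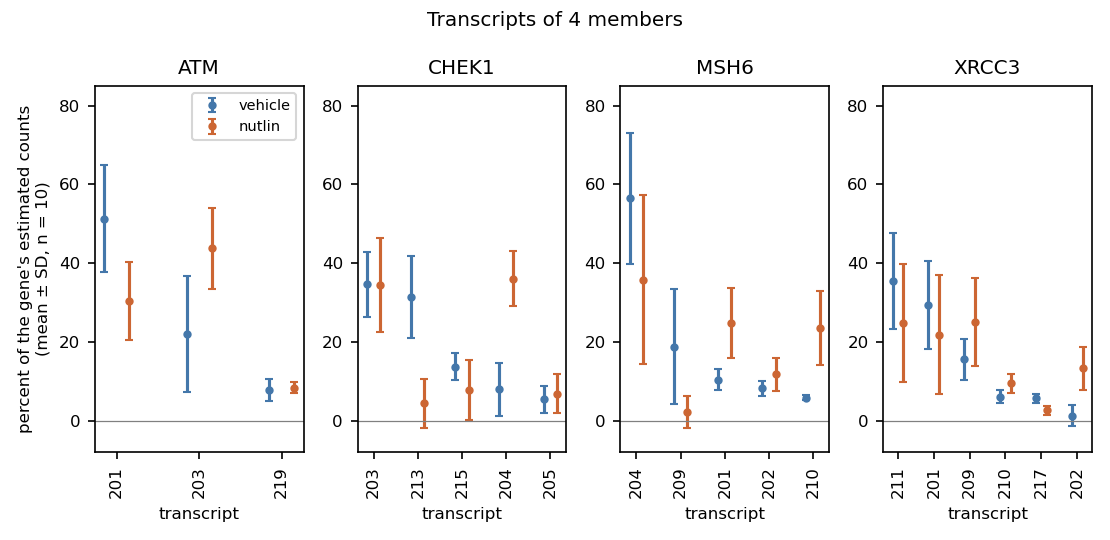
Share of the gene's estimated counts (y axis, percent, mean ± SD over 10 samples) held by each tested transcript above 5% in a group, for ATM, CHEK1, MSH6 and XRCC3, in vehicle (blue) and nutlin (orange) samples. ATM-201 drops from 51.3% to 30.4% while ATM-203 goes from 21.9% to 43.7%, and CHEK1-213 and CHEK1-204 trade places.

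The other genes of these pathways, taken from lists of known members, are set beside the 38.5% of mRNAs called lower and the 32.4% called higher. Of 38 other recombination genes, 27 were called lower and 5 higher, with a median LFC of −0.68. RMI2 (LFC −2.33) and DNA2 (−2.25), which act with BLM, fell most, and RAD52 (0.57) and the helicase RECQL5 (0.50) rose most. Of 15 other Fanconi genes, 9 were called lower and 5 higher, the latter near the share of all mRNAs, with a median LFC of −0.34. The ubiquitin-conjugating enzyme UBE2T (−2.38) and the deubiquitinase USP1 (−1.87), which add and remove the mark on FANCD2 and FANCI, fell most, and REV3L (1.99), the catalytic subunit of a lesion-bypass polymerase, and the nuclease FAN1 (0.47) rose most. REV3L lay between 9.28 and 27.9 CPM in vehicle and between 56.1 and 110 CPM in nutlin samples, so that its groups were apart.

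Of 16 other checkpoint genes, 15 were called lower and HUS1 (LFC 0.15), a subunit of the 9-1-1 clamp, higher. CLSPN (−3.21), the mediator between ATR and CHEK1, and the phosphatase CDC25A (−2.81), which CHEK1 restrains, fell most. Of 9 end joining genes, which rejoin breaks without a template, 5 were called lower and 3 higher, from XRCC6 and XRCC4 (both −1.19) to POLM (0.43) and POLL (0.67). For so few genes these counts are near the shares of all mRNAs. Of 5 other mismatch repair genes, 3 were called lower and PMS2 higher (0.24), with MLH3 (−0.79) and MSH3 (−0.45) lowest. The proliferation markers moved with the members. All 21 were called lower, from MCM6 (−3.44) and MYBL2 (−3.15) to TYMS (−0.17), with a median LFC of −2.67 and a summed level of 2662 to 3031 TPM in vehicle and 600 to 732 TPM in nutlin samples. Their part in the decrease of the members was not tested.

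The promoters of the 4 members with the most negative and the 2 with the most positive LFC are shown to set the letters of cell cycle motifs beside the expression values. The 250 bases before the RefSeq start (GRCh38.p14) run 5′ to 3′ on the gene's strand, and capitals mark matches on either strand to the letters of 3 motifs. The E2F letters were TTCCCGC, with TTGGCGC as a second form and TTCGCGC or, last, TTGCCGC as further forms. The CHR letters were TTTGAA and also TTCGAA, and the third motif was CCAAT. E2F factors regulate S phase genes, the CHR is an element of G2 and M phase genes, and CCAAT binds NF-Y. The windows are chr1:46247513-46247762 (+) for RAD54L, chr17:61863529-61863778 (−) for BRIP1, chr15:90717096-90717345 (+) for BLM, chr17:43125365-43125614 (−) for BRCA1, chr17:58692352-58692601 (+) for RAD51C and chr11:108222817-108223066 (+) for ATM.
RAD54L: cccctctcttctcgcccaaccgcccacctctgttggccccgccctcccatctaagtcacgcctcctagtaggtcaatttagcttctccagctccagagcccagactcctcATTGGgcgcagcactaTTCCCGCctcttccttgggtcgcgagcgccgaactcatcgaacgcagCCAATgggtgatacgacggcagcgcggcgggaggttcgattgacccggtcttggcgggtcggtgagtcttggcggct
BRIP1: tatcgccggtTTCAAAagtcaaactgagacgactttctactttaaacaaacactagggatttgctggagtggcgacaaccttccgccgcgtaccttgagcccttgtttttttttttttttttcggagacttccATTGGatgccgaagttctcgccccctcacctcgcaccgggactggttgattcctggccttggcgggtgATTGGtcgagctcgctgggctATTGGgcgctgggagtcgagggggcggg
BLM: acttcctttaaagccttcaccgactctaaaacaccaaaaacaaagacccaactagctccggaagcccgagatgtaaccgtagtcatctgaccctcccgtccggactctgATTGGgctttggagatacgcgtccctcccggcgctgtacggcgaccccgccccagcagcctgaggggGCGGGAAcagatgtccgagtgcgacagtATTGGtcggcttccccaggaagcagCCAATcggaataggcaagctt
BRCA1: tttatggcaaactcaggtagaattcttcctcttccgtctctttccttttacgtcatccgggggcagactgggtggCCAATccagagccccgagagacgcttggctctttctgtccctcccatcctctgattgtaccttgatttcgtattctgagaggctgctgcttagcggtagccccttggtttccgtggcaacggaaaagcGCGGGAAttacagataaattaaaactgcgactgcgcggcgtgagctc
RAD51C: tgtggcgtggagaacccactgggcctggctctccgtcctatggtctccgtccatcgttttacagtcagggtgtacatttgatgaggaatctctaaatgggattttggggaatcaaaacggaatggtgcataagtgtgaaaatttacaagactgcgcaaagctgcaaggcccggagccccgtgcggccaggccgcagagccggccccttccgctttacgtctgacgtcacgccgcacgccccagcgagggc
ATM: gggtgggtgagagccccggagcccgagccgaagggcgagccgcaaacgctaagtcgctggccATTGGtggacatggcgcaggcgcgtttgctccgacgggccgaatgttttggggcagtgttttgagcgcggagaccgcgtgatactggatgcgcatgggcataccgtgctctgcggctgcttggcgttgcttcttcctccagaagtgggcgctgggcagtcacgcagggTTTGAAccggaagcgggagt

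RAD54L, BLM and BRCA1 each held 1 match to the E2F letters in these bases, at 124, 74 and 47 bases before the start. RAD51C held none of the 3 motifs, and ATM held a CHR match 20 bases before the start and a CCAAT match at 188 bases. BRIP1 held a CHR match 240 bases before the start and 3 CCAAT matches. Its E2F match lay in the 50 bases after the start, which are not shown. Over the 300 bases from 250 before to 50 after the start, the E2F letters were present in 20 of the 35 members with an entry (57.1%), beside 18.9% of 13583 mRNA promoters. All 20 belonged to members called lower, of which 31 had an entry, and 0 of the 4 others (ATM, ATR, RAD50 and RAD51C) held them. With a share of 18.9% over all mRNA promoters, a count of 0 among 4 does not set these apart. The share over mRNAs called lower was not taken. CHEK1, RAD51B and TP53BP1 were counted without E2F letters, but their RefSeq starts lay 1061, 3762 and 17484 bases from the GENCODE start. Among the 7 members that fell by more than 4-fold, 6 held the E2F letters and 6 held CCAAT. The CCAAT motif was present in 18 of 35 members (51.4%), beside 36.4% of mRNA promoters, and the CHR letters in 4 of 35 (11.4%), beside 11.7%. A promoter counted once however many matches it held, so overlapping matches add nothing. A match is a description of the sequence and not a sign that a factor binds there.

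Several members overlap other genes in the annotation. MDC1 lies opposite TUBB, which had a mean count of 57283 in vehicle and 18750 in nutlin samples, FANCI lies opposite POLG (1774 and 1523), and CHEK1 overlaps STT3A on the same strand (903 and 607). Whether kallisto used the strand of the reads is not given in the sources used here, so reads from such neighbours may be shared with these members.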

How the data were processed

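Poly(A) RNA of 10 vehicle and 10 nutlin samples was sequenced by the authors (TruSeq stranded mRNA, paired-end, 75 nucleotides), as 10 biological replicates per condition. Per the labels, reads were quantified with kallisto 0.42.4 on hg38. The deposited estimated counts per transcript are not normalized, and the deposited TPM values are those counts scaled by effective length and library size. The deposited effective lengths, in bases, were used for 1 alternative.

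Transcripts were assigned to genes with GENCODE release 44 (authors: Ensembl release 85). Of 198968 transcripts, 191106 (96.0%) matched, holding 96.7 to 96.8% of the counts of vehicle and 95.7 to 95.9% of nutlin samples. Sums per gene were rounded. The test covered mRNAs and lncRNAs that had 1 count or more in both conditions, with edgeR 4.0.16 in R 4.3.3 (TMM, condition only, quasi-likelihood F-test, 5% FDR), which was also tested on simulated data. The SE is the absolute LFC over the square root of F. DESeq2 1.42.0 and limma 3.58.1 served as alternatives, and numpy 2.4.6, pandas 2.3.3 and matplotlib 3.10.9 for tables and plots. Errors are the spread between samples, and depth limits the precision of genes with few counts.

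The members and all lists were chosen with earlier results of these data known. All members are named by their LFC. Per-sample values are given for the most negative and most positive LFC of each role and for members called higher, and of each other list the 2 called genes at either end are named. A further gene that this rule names is not reported here. REV3L's samples and the transcript examples were added after their values were seen.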

Additional observations from a re-analysis of the deposited data

Results flagged for a closer look

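In 5 of the 78 groups tested (39 members in 2 conditions), the highest or the lowest sample lay farther from the others than Dixon's criterion at 95% allows on the scale log2(CPM + 0.01), and chance alone flags about 1 in 20 such groups. NBN was at 39.7 CPM in nutlin replicate 4, with the other nutlin samples between 32.8 and 35.8 CPM. RAD54B was at 3.99 CPM in nutlin replicate 2, with the others between 5.17 and 6.16 CPM. FANCB was at 0 CPM in nutlin replicate 11, with the others between 0.690 and 2.84 CPM. RAD54L was at 52.1 CPM in vehicle replicate 4, with the others between 56.5 and 61.2 CPM. MDC1 was at 158 CPM in vehicle replicate 12, with the others between 169 and 181 CPM. On CPM without a log, a comparison added after the data were seen, 4 of the 5 also lay past the criterion and FANCB did not, so its place here rests on the log scale and the offset at 0. Each is a single sample of a different library.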

How the results depend on the processing

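Of the 39 members, 33 kept their direction and their side of the 5% FDR threshold under all 9 other fits, and the number called lower stayed between 31 and 34 with any setting tried. The number called higher was 5 with DESeq2, DESeq2 size factors, total counts only, filterByExpr and protein_coding transcripts only, where WRN and ATR were added. The cause was not tested. The median LFC of the members was −1.17 with total counts only, −1.29 with filterByExpr and −1.29 with protein_coding transcripts only. PALB2 reversed to 0.0572 with total counts only and to 0.000485 with the effective length offset, and was no longer called in 6 other fits. FANCB was lost in 5 fits, RAD51B with the effective length offset (LFC −0.51) and ATRIP with protein_coding transcripts only (−0.14). Among the lists, other recombination genes called higher became 8 and other mismatch repair genes called higher 2 with total counts only, end joining genes called lower became 3 with protein_coding transcripts only, and other checkpoint genes called higher became 0 at 1% FDR (HUS1, adjusted p = 0.0112, edgeR). For the pairs, CHEK1/CHEK2 was −0.43 (adjusted p = 0.118, permutation) and XRCC2/XRCC3 reversed to 0.15 with protein_coding transcripts only. Changed transcript usage was called for 10 members at 1% FDR, 15 with limma diffSplice and 13 with the replicate block, and the CHR letters were in 2 promoters over the 200 base window.

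The labels give 8 replicate numbers in both groups. Deviations of same-numbered samples correlated between −0.04 and 0.08, so the numbers were not taken as pairs. With the replicate number as a block (16 samples), 32 members were called lower and 3 higher, as without the block in the same samples. FANCD2/FANCI reversed to −0.00738 and XRCC2/XRCC3 was −0.28 (adjusted p = 0.0608, exact sign flips). Low counts limit FANCB and RAD51B.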

Other observations

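Within the nutlin group, 5 members varied far more than the rest. Their coefficients of variation were 66.2% (FANCB), 37.9% (MSH6), 35.2% (FANCD2), 29.5% (CHEK2) and 29.1% (RAD51B), beside a median of 9.67% over all members. In the vehicle group they were 86.9%, 13.6%, 17.2%, 13.9% and 22.0% in the same order, so FANCB varied widely in both groups. For every member the most negative r with any of the 1138 unmatched transcripts was taken. It was −0.93 for FANCB, −0.83 for CHEK2, −0.71 for FANCD2, −0.69 for RAD51B and −0.65 for MSH6. The median over all members was −0.72, so such values were not particular to these 5. The part of unmatched forms in these spreads was not tested. ATM had the tightest nutlin samples, at 2.0%, beside 14.8% in the vehicle samples. For MSH6 the spread lay largely in MSH6-204, a transcript typed as nonsense_mediated_decay, which ran from 31.1 to 371 estimated counts over the nutlin samples, while MSH6-210 ran from 65.9 to 110 and MSH6-201 from 58.0 to 158.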
